A study of Mus musculus with 6 samples.

Results

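A group of 9 genes that control coagulation and fibrinolysis at the vessel wall was examined in E9.5 mouse hearts lacking filamin C, out of 54356 genes with a transcript in the data. They were taken as a named list: *F3*, *Tfpi*, *Thbd*, *Procr*, *Pros1*, *Serpine2*, *Plat*, *Plau* and *Plaur*. RNA-seq was performed on 3 FlncgKO and 3 littermate control libraries, labelled as whole heart from the C57BL/6 strain at E9.5. FlncgKO embryos carry a global deletion of *Flnc*, made by recombining a floxed allele (Flnc fl/fl) with Sox2Cre, which acts in the whole epiblast, and *Flnc* encodes an actin crosslinker of striated muscle. The labels call the other embryos littermate controls without giving their alleles, the methods speak of hearts or isolated ventricles, and how many hearts made up a library is not stated. All 9 genes were among the 16048 that passed the filter on low counts. The p-values of the gene tests weigh group differences against variation between the 3 libraries per group, estimated with help from all genes. Whether that is variation between single embryos is unknown. Because these were bulk libraries, fewer cells of a type cannot be told apart from less RNA per cell.

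Coagulation starts when tissue factor, the product of *F3*, is exposed to plasma, and it is held back on endothelium by inhibitors and by the protein C pathway. Thrombomodulin (*Thbd*) turns thrombin into an activator of protein C, the receptor encoded by *Procr* presents protein C to it, and protein S (*Pros1*) is the cofactor of activated protein C. Fibrin is removed by plasmin, which is made from plasminogen by tissue-type and urokinase-type activators (*Plat*, *Plau*). The question addressed was whether these genes differed between FlncgKO and control hearts in a procoagulant or an anticoagulant direction.

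None of the 9 genes passed the edgeR quasi-likelihood test in either direction (Benjamini-Hochberg adjusted p over all genes, threshold 0.05), where 1.06% of all genes tested were called higher and 0.249% lower in FlncgKO hearts. At an unadjusted p under 0.05, 2 of the 9 were higher, *Pros1* and *Plaur*, and none lower, against 13.3% higher and 8.84% lower of all genes. DESeq2 called 1 of the 9, *Pros1*, higher and none lower, against 6.19% and 2.26% of genes. *Pros1* and *Plaur* were also the only members whose 3 FlncgKO libraries all lay above the 3 control libraries, a pattern that 15.7% of all genes showed, and 14.1% of genes showed the reverse (29.7% in either direction). The log2 fold change, FlncgKO minus control, was positive for 7 of the 9 genes with a median of 0.65, whereas it was positive for 51.6% of all genes with a median of 0.0087. The positive values included *F3*, which starts coagulation, and *Tfpi*, *Procr*, *Pros1* and *Serpine2*, which restrain it. Of these 7 genes, *F3*, *Tfpi* and *Procr* turned negative with the level of Y-linked genes as a covariate (-0.31, -0.16 and -1.18). That fit rests largely on FlncgKO library 1, because the Y-linked level nearly followed the groups otherwise. *Procr* was also at -1.57 without FlncgKO library 3. *Pros1*, *Plau*, *Plaur* and *Serpine2* stayed positive in every alternative fit, though *Serpine2* was small, at 0.08 ± 0.069 (SE).

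Promoter sequences were taken as 300-base windows running from 250 bases before to 50 bases after the RefSeq start site, on GRCm38.p6. Of the 9 members, 6 had a window, and *Tfpi* had one for each of its 2 RefSeq starts. The AP-1 motif TGANTCA, which reads the same on both strands, was found in 3 of the 7 windows and in 7.81% of 32851 RefSeq promoter windows of the same length. These 3 windows are shown first because they hold the motif, which is printed in capitals. *F3* held 2 matches, beginning 146 and 135 bases before its start, and 0.46% of all windows held 2 or more. The *Procr* match began 154 bases and the *Plaur* match 69 bases before the start. AP-1 was 1 of 7 motifs searched on both strands, which were chosen after the members' windows had been seen. The others were the GC box GGGCGG in 6 of 7 windows (35.66% of all windows), the KLF motif CACCC in 5 (57.52%), the GATA motif AGATAA in 1 (11.18%), the hypoxia element core ACGTG in 1 (19.62%), and the ETS motif CCGGAA and the RUNX motif TGTGGT in 0 (14.9% and 16.76%). A match describes letters in a window and says nothing of binding.
F3, chr3:121723287-121723586, + strand: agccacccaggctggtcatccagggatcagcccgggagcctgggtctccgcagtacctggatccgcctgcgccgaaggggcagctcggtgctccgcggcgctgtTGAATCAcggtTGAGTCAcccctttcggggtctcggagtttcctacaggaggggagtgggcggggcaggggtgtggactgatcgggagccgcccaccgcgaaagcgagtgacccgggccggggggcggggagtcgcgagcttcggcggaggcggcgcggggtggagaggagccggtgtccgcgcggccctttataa
Procr, chr2:155750967-155751266, + strand: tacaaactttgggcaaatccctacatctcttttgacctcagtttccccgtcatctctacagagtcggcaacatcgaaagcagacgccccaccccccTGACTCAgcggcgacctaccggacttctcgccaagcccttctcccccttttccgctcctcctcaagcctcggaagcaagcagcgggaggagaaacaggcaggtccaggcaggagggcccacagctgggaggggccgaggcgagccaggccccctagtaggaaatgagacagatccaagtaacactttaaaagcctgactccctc
Plaur, chr7:24462233-24462532, + strand: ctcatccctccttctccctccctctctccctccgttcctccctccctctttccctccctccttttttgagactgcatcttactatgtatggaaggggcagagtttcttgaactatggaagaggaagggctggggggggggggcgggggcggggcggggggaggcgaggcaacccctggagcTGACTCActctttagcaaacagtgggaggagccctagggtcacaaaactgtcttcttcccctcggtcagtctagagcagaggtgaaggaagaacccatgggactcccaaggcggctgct

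The *Pros1* window, shown because *Pros1* had the smallest p of the 9 genes, held no AP-1 match. It held 5 matches to the GC box. The windows of both *Tfpi* starts, shown because the summed levels of transcripts from these starts behaved differently across libraries, held no AP-1 match either. The start sites lie 2585 bases apart, and the downstream one held the GATA motif once, 54 bases before its start. The *Serpine2* window, which is not shown, held no AP-1 match and 6 matches to the GC box. *Thbd*, *Plat* and *Plau* had no window.
Pros1, chr16:62854057-62854356, + strand: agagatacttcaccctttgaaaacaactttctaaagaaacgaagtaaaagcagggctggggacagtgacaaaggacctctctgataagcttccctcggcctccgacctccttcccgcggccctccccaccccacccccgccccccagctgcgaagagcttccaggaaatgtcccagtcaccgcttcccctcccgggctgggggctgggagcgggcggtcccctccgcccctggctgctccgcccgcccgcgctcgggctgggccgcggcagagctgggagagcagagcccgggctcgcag
Tfpi upstream start, chr2:84476710-84477009, - strand: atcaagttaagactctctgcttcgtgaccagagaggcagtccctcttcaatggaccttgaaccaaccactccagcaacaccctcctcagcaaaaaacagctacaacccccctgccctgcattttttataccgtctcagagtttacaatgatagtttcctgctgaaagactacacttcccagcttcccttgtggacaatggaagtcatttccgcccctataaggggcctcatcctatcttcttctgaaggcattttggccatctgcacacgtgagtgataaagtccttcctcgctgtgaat
Tfpi downstream start, chr2:84474125-84474424, - strand: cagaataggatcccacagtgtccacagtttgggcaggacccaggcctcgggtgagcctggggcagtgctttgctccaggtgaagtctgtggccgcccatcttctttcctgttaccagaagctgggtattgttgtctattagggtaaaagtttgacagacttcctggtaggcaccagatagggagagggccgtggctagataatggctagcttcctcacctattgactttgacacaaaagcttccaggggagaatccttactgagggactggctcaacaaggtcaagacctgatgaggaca

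The libraries held 19208859 to 23123255 estimated counts. The targeted gene *Flnc* (filamin C) was at 127, 111 and 240 CPM (counts scaled to library size) in FlncgKO libraries 1, 2 and 3, against 844, 623 and 746 CPM in control libraries 1, 2 and 3, a log2 fold change of -2.21 (edgeR adjusted p = 0.0656, DESeq2 adjusted p = 9.99e-07), so no library went against its label. Library 3 of each group stood apart from libraries 1 and 2. Both libraries numbered 3 lay above the other 4 for 1485 genes (9.25% of those tested), and over 2 times above the highest of them for 241 genes. Among these were genes of placental trophoblast. The summed level of 9 such genes, listed after the data had been seen, was 56.0, 13.2 and 716 CPM in FlncgKO libraries 1, 2 and 3, against 16.7, 6.13 and 406 CPM in control libraries 1, 2 and 3, with *Prl3d1*, a trophoblast giant cell hormone, at 270 CPM in FlncgKO library 3 and 137 CPM in control library 3. In this list 6 of 9 genes passed the filter, and 3 decidual genes listed in the same way summed to 43.3, 0.750 and 422 CPM in FlncgKO libraries, against 27.3, 1.59 and 199 CPM in control libraries. The Y-linked genes summed to 80.7, 3.88 and 4.28 CPM in FlncgKO libraries, against 117, 140 and 122 CPM in controls, so sex was not balanced. Among FlncgKO libraries only library 1 came near the controls, so a fit with this level as a covariate rests largely on that library. It cannot separate sex from genotype well. In that fit edgeR called 0 genes, although 906 with a positive and 391 with a negative fold change had an unadjusted p under 0.05. The log2 fold changes of *F3*, *Tfpi* and *Procr* turned to -0.31, -0.16 and -1.18. Because library 3 stood apart, results for the 9 genes are also given without both libraries numbered 3, and with the log2 placental level as a covariate. Both were chosen after the data had been seen.

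**Figure D1:**
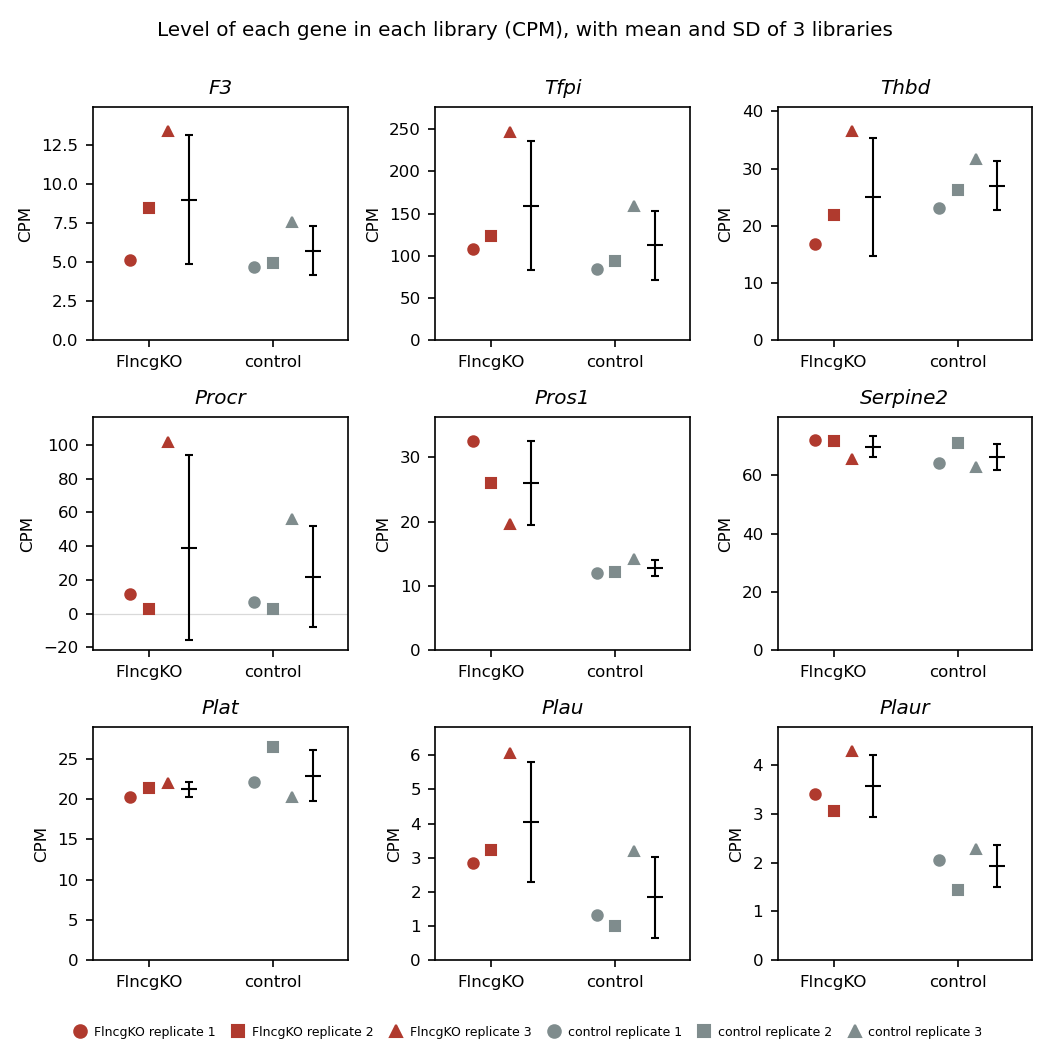
Level of each of the 9 genes in CPM (y axis, linear) in the 3 FlncgKO libraries (red, left) and the 3 control libraries (grey, right), with the mean and SD of each group as black bars. Symbols mark the library number. *Pros1* and *Plaur* are the genes whose groups do not overlap, while *F3*, *Tfpi*, *Thbd*, *Procr*, *Plau* and *Plaur* have their highest value in library 3 of both groups.

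Tissue factor, the initiator of coagulation, was encoded by *F3* at chr3:121723537-121735048. It was at 5.14, 8.47 and 13.3 CPM in FlncgKO libraries 1, 2 and 3, against 4.71, 4.92 and 7.54 CPM in control libraries 1, 2 and 3. The groups overlapped, since FlncgKO library 1 lay below control library 3. The log2 fold change was 0.65 ± 0.37 (SE, edgeR adjusted p = 0.364, DESeq2 adjusted p = 0.319). Without both libraries numbered 3 it was 0.50 (edgeR adjusted p = 0.282), and with the placental covariate it was 0.49 (edgeR adjusted p = 0.339), while leaving out FlncgKO library 3 alone gave 0.25 (edgeR adjusted p = 0.652). The full-length transcript carried 97.6%, 95.0% and 80.2% of *F3* TPM (a level per transcript length) in FlncgKO libraries, against 97.4%, 89.1% and 79.6% in control libraries.

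*Tfpi*, which encodes the inhibitor of tissue factor and factor VIIa, had the highest level per length of the 9 genes in every library, at 97.4, 122.7 and 274 TPM in FlncgKO libraries and 87.7, 87.9 and 158 TPM in control libraries. In CPM it was at 108, 123.3 and 247 in FlncgKO libraries 1, 2 and 3, against 84.4, 94.2 and 159 in control libraries 1, 2 and 3. The groups overlapped through control library 3 alone. Its log2 fold change was 0.50 ± 0.44 (SE, edgeR adjusted p = 0.573, DESeq2 adjusted p = 0.690). It was 0.37 without both libraries numbered 3 (edgeR adjusted p = 0.0586) and 0.27 with the placental covariate (edgeR adjusted p = 0.499), while leaving out FlncgKO library 3 alone gave 0.04 and leaving out control library 3 alone gave 0.83.

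The *Tfpi* gene (chr2:84432855-84476775, - strand) has 10 annotated transcripts, which were grouped by a start within 500 bases of either RefSeq start. Transcripts from the downstream start summed to 47.1, 48.8 and 181 TPM in FlncgKO libraries 1, 2 and 3, against 33.2, 37.0 and 91.9 TPM in control libraries 1, 2 and 3. Transcripts from the upstream start summed to 17.9, 22.98 and 19.9 TPM in FlncgKO libraries, against 15.4, 19.2 and 19.7 TPM in control libraries. The remaining 3 transcripts summed to 32.4, 50.9 and 73.4 TPM in FlncgKO libraries, against 39.0, 31.7 and 46.4 TPM in controls. Library 3 was thus highest in both groups for the downstream and the remaining transcripts, whereas the upstream level varied little. The downstream level was 2.63, 2.12 and 9.11 times the upstream level in FlncgKO libraries, against 2.16, 1.92 and 4.66 times in control libraries. The largest part was *Tfpi*-201, which codes for 306 amino acids and was at 36.0, 35.2 and 151 TPM in FlncgKO libraries, against 23.6, 24.8 and 78.9 TPM in controls, whereas upstream-start transcripts code for 235 or 247 amino acids. The division of reads among overlapping transcripts is an estimate by salmon, and no test was made on it. The part of placental RNA in the downstream transcripts was not tested.

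**Figure D2:**
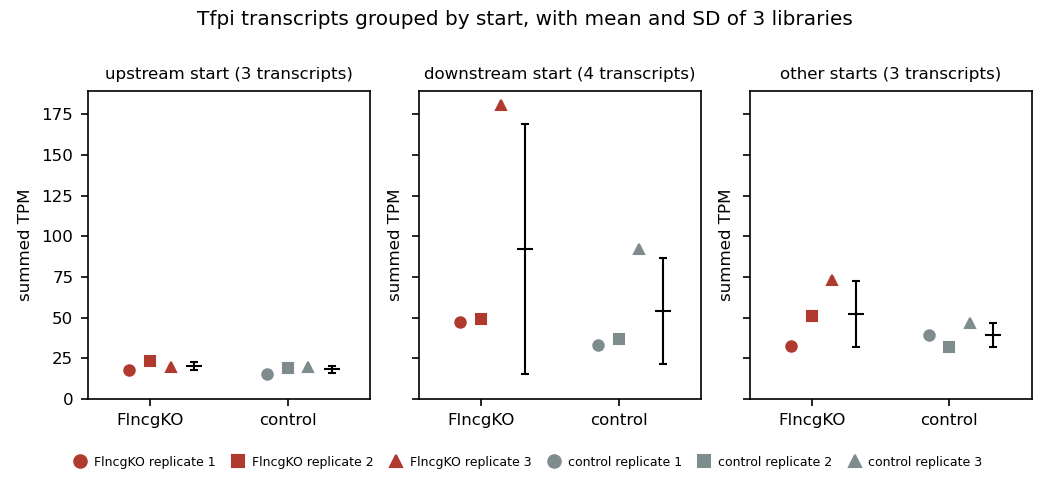
Summed TPM (y axis, linear) of *Tfpi* transcripts from the upstream start, the downstream start and other starts, for the 3 FlncgKO libraries (red, left) and the 3 control libraries (grey, right), with the mean and SD of each group. Library 3 of both groups lies above libraries 1 and 2 for the downstream start, at 181 and 91.9 TPM, and all 6 libraries lie between 15.4 and 22.98 TPM for the upstream start.

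Of the protein C pathway, *Thbd* (thrombomodulin, chr2:148404466-148408188) was at 16.9, 21.8 and 36.7 CPM in FlncgKO libraries 1, 2 and 3, against 23.2, 26.2 and 31.6 CPM in control libraries 1, 2 and 3. FlncgKO libraries held both the lowest and the highest value. For *Thbd* the log2 fold change was -0.11 ± 0.31 (SE, edgeR adjusted p = 0.875, DESeq2 adjusted p = 0.891). Without both libraries numbered 3, FlncgKO libraries 1 and 2 lay below both controls and the log2 fold change was -0.35 (edgeR adjusted p = 0.196). With the placental covariate it was -0.26 (edgeR adjusted p = 0.542), and it turned to 0.10 without FlncgKO library 1 and to 0.02 without control library 3. It was -0.48 without FlncgKO library 3 and -0.78 with the Y-linked covariate.

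*Procr* (the endothelial protein C receptor, chr2:155751117-155755471) varied more between libraries than any other member, by 35.6 times between the highest and the lowest. It was at 11.9, 2.87 and 102 CPM in FlncgKO libraries 1, 2 and 3, against 6.68, 2.99 and 56.3 CPM in control libraries 1, 2 and 3. Library 3 was 13.8 times the mean of libraries 1 and 2 in FlncgKO hearts and 11.6 times in control hearts, and the lower of the libraries numbered 3 was 4.71 times the highest of the other 4, a ratio reached by 0.330% of genes. The order of the 6 libraries by *Procr* was that by summed placental genes except that FlncgKO library 2 and control library 2 changed places. The log2 fold change of 0.82 ± 1.77 (SE, edgeR adjusted p = 0.830, DESeq2 adjusted p = 0.873) had the largest standard error of the 9 genes. It was 0.61 without both libraries numbered 3 (edgeR adjusted p = 0.744), and it turned to -0.24 with the placental covariate (edgeR adjusted p = 0.579) and to -1.57 without FlncgKO library 3 alone (edgeR adjusted p = 0.668).

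**Figure D3:**
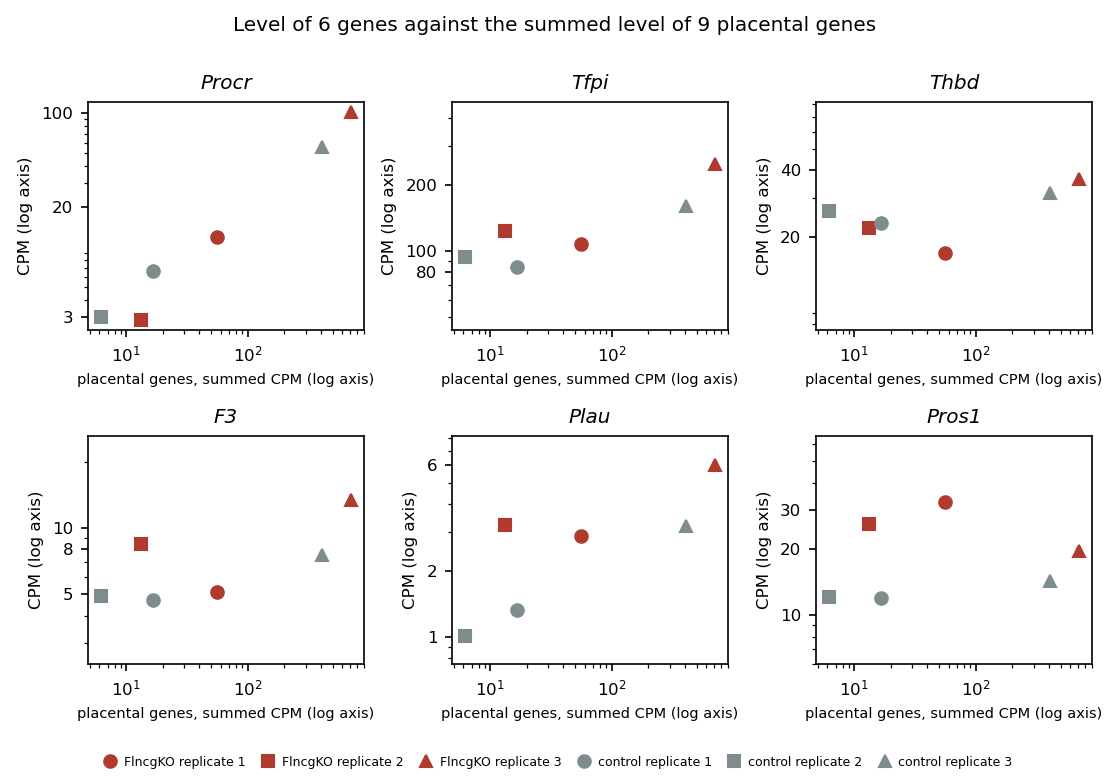
Level of 6 of the genes in CPM (y axis, log scale) against the summed level of 9 placental genes in CPM (x axis, log scale), 1 point per library, FlncgKO in red and control in grey, with symbols for the library number. *Procr* runs between 2.87 and 102 CPM along the placental level, and *Pros1* is higher in FlncgKO libraries at low and at high placental level.

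*Pros1* (protein S, chr16:62854307-62929346) was the member with the clearest difference. It was at 32.55, 26.0 and 19.6 CPM in FlncgKO libraries 1, 2 and 3, against 11.98, 12.2 and 14.3 CPM in control libraries 1, 2 and 3. The groups did not overlap, and the mean was 26.0 ± 6.47 CPM in FlncgKO and 12.8 ± 1.26 CPM in control hearts (SD, n = 3 each). *Pros1* had a log2 fold change of 1.03 ± 0.19 (SE), with an edgeR adjusted p of 0.0534, just over the threshold, and a DESeq2 adjusted p of 2.79e-05. Without both libraries numbered 3 it was 1.28 (edgeR adjusted p = 0.00348), and with the placental covariate 1.04 (edgeR adjusted p = 0.0476). When each library was left out in turn, the edgeR adjusted p lay between 0.00205, without FlncgKO library 3, and 0.248, while DESeq2 called *Pros1* each time. Nearly all of its signal, 97.3% or more of its TPM in every library, came from the full-length transcript, which codes for 675 amino acids.

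The order of the FlncgKO libraries by *Pros1*, with library 1 highest and library 3 lowest, was also that of the summed platelet and megakaryocyte markers. It was not particular to them, since the summed cardiomyocyte markers had the same order (30128, 29400 and 25680 CPM in FlncgKO libraries 1, 2 and 3). How many of all genes share this order was not counted. The 8 platelet and megakaryocyte markers summed to 411, 260 and 75.1 CPM in FlncgKO libraries 1, 2 and 3, against 20.03, 16.2 and 24.0 CPM in control libraries 1, 2 and 3. All 8 were higher in every FlncgKO library than in any control library. None passed the edgeR test, although all 8 had an unadjusted p under 0.05 and DESeq2 called all 8, and the log2 fold changes were 4.94 for *Gp9* and 5.09 for *Gp5*, platelet adhesion receptor subunits, and 5.32 for *Ppbp*, a platelet chemokine (edgeR adjusted p = 0.0501, 0.0647 and 0.0501). Human platelets are known to store protein S, and the part of platelets in the *Pros1* difference was not tested. The 3 genes most like *Pros1*, by the root mean square difference of log2 CPM relative to the control mean over the 6 libraries, were *Ubash3b* (0.0869), *Fhl3* (0.0930) and 5033406O09Rik (0.111). Of these, *Fhl3*, a LIM domain protein gene, passed the edgeR test (log2 fold change 1.01, adjusted p = 0.0369).

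Protein S also acts as a ligand of TAM receptor kinases, and it depends on vitamin K dependent carboxylation. The receptors and the related ligand *Gas6* had log2 fold changes from -0.09 (*Tyro3*) to 0.28 (*Axl*), with *Mertk* at -0.04, and none of these 4 genes passed edgeR, DESeq2 or an unadjusted p under 0.05. Of the 3 carboxylation genes none passed edgeR or DESeq2, with 1 at an unadjusted p under 0.05, *Vkorc1l1* at -0.17 (edgeR adjusted p = 0.156). The values for *Vkorc1* and *Ggcx* were 0.12 and 0.0016.

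*Serpine2* encodes protease nexin-1, a cell-bound inhibitor of thrombin and of the plasminogen activators, at chr1:79794197-79861180. It was among the most even of the 9 genes, at 72.0, 71.9 and 65.65 CPM in FlncgKO libraries 1, 2 and 3, against 64.3, 71.2 and 62.9 CPM in control libraries 1, 2 and 3. The highest library was 1.14 times the lowest, and the groups overlapped. *Serpine2* had a log2 fold change of 0.08 ± 0.069 (SE, edgeR adjusted p = 0.544, DESeq2 adjusted p = 0.768), and it was 0.09 without both libraries numbered 3.

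Among the genes of fibrin removal, *Plat* (tissue-type plasminogen activator, chr8:22757727-22782844) was at 20.2, 21.4 and 21.95 CPM in FlncgKO libraries 1, 2 and 3, against 22.1, 26.4 and 20.2 CPM in control libraries 1, 2 and 3. The groups overlapped, and the log2 fold change was -0.11 ± 0.11 (SE, edgeR adjusted p = 0.589, DESeq2 adjusted p = 0.738). *Plau* (urokinase, chr14:20836660-20843385) was low, at 2.86, 3.22 and 6.05 CPM in FlncgKO libraries 1, 2 and 3, against 1.33, 1.01 and 3.19 CPM in control libraries 1, 2 and 3. Library 3 was the highest of both groups, 1.99 times the mean of the other FlncgKO libraries and 2.73 times that of the other controls, and the groups overlapped, since control library 3 lay above FlncgKO library 1. *Plau* had a log2 fold change of 1.13 ± 0.50 (SE, edgeR adjusted p = 0.248, DESeq2 adjusted p = 0.168). Without both libraries numbered 3 it was 1.37 and passed the test (edgeR adjusted p = 0.0323), with counts of 64 and 73 in FlncgKO and 29 and 21 in control libraries, and with the placental covariate it was 0.95 (edgeR adjusted p = 0.0646). Leaving out FlncgKO library 3 alone gave 0.72, leaving out control library 3 alone gave 1.78, and the Y-linked covariate gave 0.53, none of which passed edgeR (adjusted p = 0.414, 0.105 and 0.917). DESeq2 called *Plau* without control library 3 (1.78, adjusted p = 0.00785).

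*Plaur*, the receptor that holds urokinase at the cell surface (chr7:24462484-24475968), was at 3.40, 3.04 and 4.28 CPM in FlncgKO libraries 1, 2 and 3, against 2.06, 1.45 and 2.27 CPM in control libraries 1, 2 and 3. The groups did not overlap. *Plaur* had a log2 fold change of 0.89 ± 0.24 (SE, unadjusted p = 0.0067, edgeR adjusted p = 0.0972, DESeq2 adjusted p = 0.0829). It lay at 0.87 without both libraries numbered 3 (edgeR adjusted p = 0.107) and at 0.79 with the placental covariate (edgeR adjusted p = 0.0682).

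**Figure D4:**
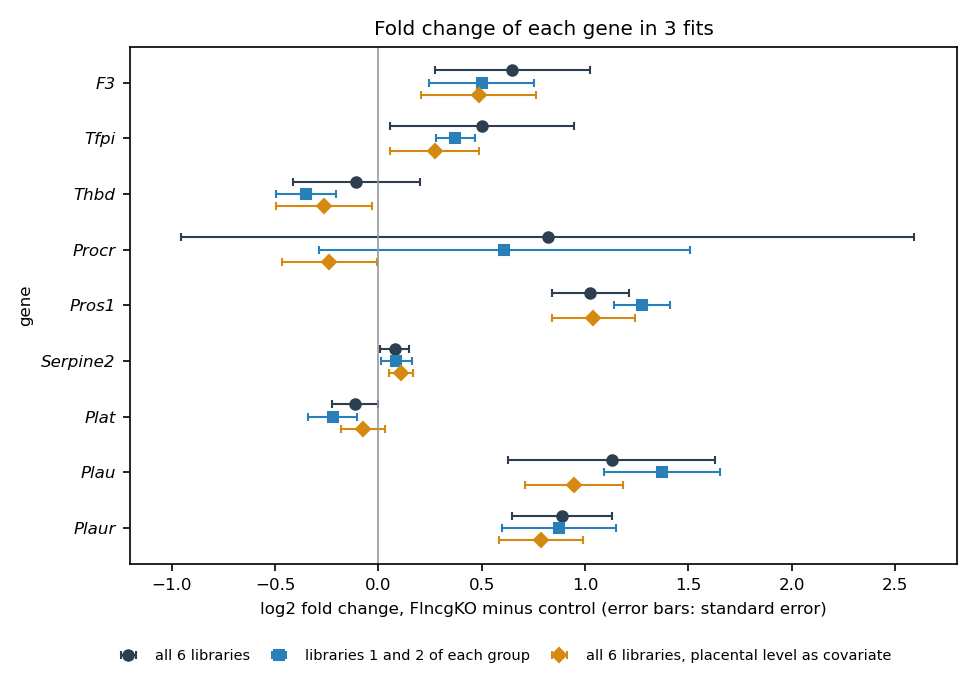
Log2 fold change, FlncgKO minus control (x axis), of the 9 genes (y axis) with its standard error, in the fit of all 6 libraries, in libraries 1 and 2 of each group, and with the placental level as a covariate. *Pros1* lies between 1.03 and 1.28 in the 3 fits, and *Procr* has the widest error and turns to -0.24 with the covariate.

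On the TPM scale, which allows comparison between genes, *Tfpi* and *Serpine2* were the highest members in libraries 1 and 2 of both groups, and *Procr* came second to *Tfpi* in both libraries numbered 3. *Serpine2* was at 59.5, 60.4 and 53.7 TPM in FlncgKO libraries, against 57.0, 58.3 and 51.1 TPM in controls. *Plau* was the lowest member in all 6 libraries, at 2.11, 2.43 and 4.42 TPM in FlncgKO hearts, against 1.00, 0.73 and 2.31 TPM in controls. *Pros1* lay above *Plat* and *Thbd* in FlncgKO libraries 1 and 2, with 19.1 and 15.7 TPM for *Pros1*, 12.1 and 13.8 TPM for *Plat* and 7.97 and 10.6 TPM for *Thbd*. In FlncgKO library 3 *Pros1* (11.8 TPM) lay below both *Plat* (13.3 TPM) and *Thbd* (17.1 TPM), as it did in all 3 control libraries (7.203, 7.03 and 8.13 TPM for *Pros1*). The order of *Thbd* and *Plat* varied among libraries of the same group.

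Ratios within a library do not depend on scaling, and those of *F3* to 2 anticoagulant genes were compared by exact two-sided permutation tests, for which 3 libraries against 3 cannot give a p below 0.1. The count ratio of *F3* to its inhibitor *Tfpi* was 0.0479, 0.0688 and 0.0541 in FlncgKO libraries, against 0.0561, 0.0525 and 0.0474 in control libraries, and the groups overlapped (log2 difference 0.12, exact p = 0.6). The ratio of *F3* to *Thbd* was 0.306, 0.389 and 0.365 in FlncgKO libraries, against 0.204, 0.189 and 0.239 in control libraries. Here every FlncgKO library lay above every control library, and the log2 difference was 0.75 (exact p = 0.1, adjusted p = 0.133 over the 4 ratios computed). It was 0.81 without both libraries numbered 3.

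**Figure D5:**
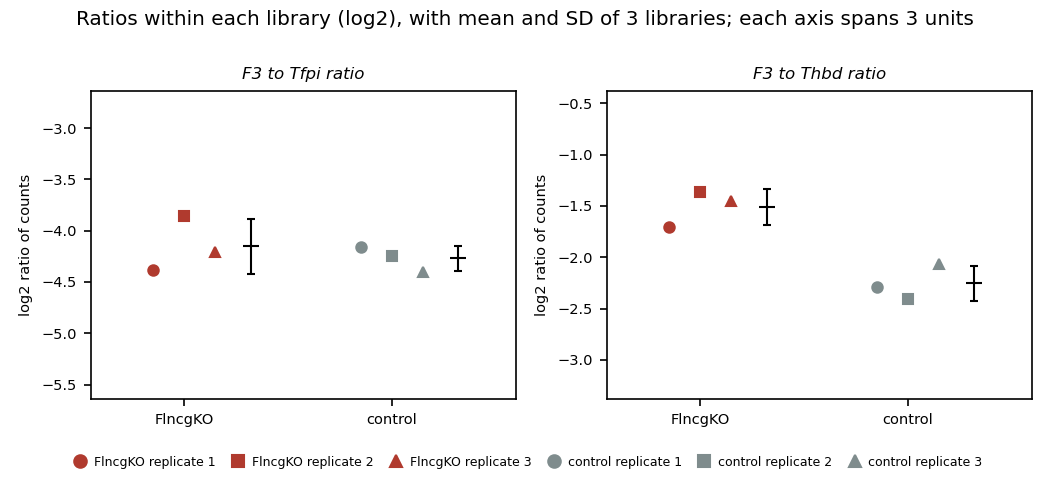
Log2 ratio of counts within each library (y axis, each axis spanning 3 units) for *F3* to *Tfpi* and *F3* to *Thbd*, in the 3 FlncgKO libraries (red, left) and the 3 control libraries (grey, right), with the mean and SD of each group. The groups overlap for *F3* to *Tfpi* and are apart for *F3* to *Thbd*, by 0.75.

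Of the rest of the pathway, none of the genes tested passed edgeR over all genes. Among 16 procoagulant factors 6 were tested, of which 4 were higher at an unadjusted p under 0.05 and by DESeq2, and *F5* (factor V) was at 27.6, 19.8 and 4.90 CPM in FlncgKO libraries, against 0.915, 1.06 and 1.30 CPM in controls (log2 fold change 3.99, edgeR adjusted p = 0.0755). *F13a1*, a fibrin crosslinker, and *F10*, factor X, had log2 fold changes of 3.49 and 1.26 (edgeR adjusted p = 0.0814 and 0.101). The remaining tested factors, *F8* and *Fgb*, went the other way, at -0.30 and -3.60 (edgeR adjusted p = 0.293 and 0.308). *F8* was lower in every FlncgKO library than in any control library. *Fgb* was at 8.64 CPM in control library 1 and at 0.678 CPM or less in every other library. All 3 thrombin and protease-activated receptors tested had an unadjusted p under 0.05 and were called higher by DESeq2, with log2 fold changes of 4.999 for *F2rl2*, 3.22 for *F2rl3* and 0.72 for *F2r* (edgeR adjusted p = 0.0859, 0.0806 and 0.120). *F5*, *F13a1*, *F10* and all 3 receptors had the FlncgKO libraries in the same order as the summed platelet markers and the summed cardiomyocyte markers. *Vwf* (von Willebrand factor), also called higher by DESeq2, did not, and the part of platelets was not tested.

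Among the other anticoagulants 3 of 9 genes were tested, and DESeq2 called 1 of them, *Anxa5*, which encodes a phospholipid-binding protein (log2 fold change 0.35, edgeR adjusted p = 0.0809), while *Entpd1* was at -0.46 and *Tfpi2* at 0.28. Among the other plasminogen system genes 6 of 10 were tested. *Anxa2*, a cell-surface site for plasminogen and its activator, was at 213, 292 and 281 CPM in FlncgKO libraries, against 101, 115 and 164 CPM in controls (log2 fold change 1.05, edgeR adjusted p = 0.0833, DESeq2 adjusted p = 0.00155). *Lrp1*, which clears activator and inhibitor complexes, was at 0.13 (edgeR adjusted p = 0.264).

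Markers of endothelium and endocardium, where most of the 9 genes are known to act, were present in all libraries. Their 12 genes summed to 1153, 1411 and 1167 CPM in FlncgKO libraries, against 992, 1173 and 1073 CPM in control libraries, with 9 of 12 log2 fold changes positive and a median of 0.29. edgeR called 1, *Emcn* (endomucin), which rose by 1.24 on the log2 scale (adjusted p = 0.0353), and DESeq2 called 6 higher and 2 lower. *Esam* and *Egfl7*, a junction protein and a secreted factor of endothelium, were at 0.53 and 0.52 (edgeR adjusted p = 0.0626 and 0.0746). The 2 markers called lower were *Npr3* at -0.58 and *Tek* at -0.40 (DESeq2 adjusted p = 0.000784 and 0.0122). Both were lower in every FlncgKO library than in any control library, and *Nfatc1* was at -0.10 with overlap. Set against the mean of these markers, as log2 CPM differences, *Pros1* was higher by 0.69 in FlncgKO hearts with no overlap, *Plat* was lower with no overlap (-0.38), and the other 7 members overlapped. On this measure 3.79% of all genes were higher and 44.6% lower with no overlap.

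Markers of other cell types were compared as well. Of 8 leukocyte genes 4 were tested, and edgeR called *Coro1a* and *Itgb2*, which rose by 3.75 and 2.25 on the log2 scale (adjusted p = 0.0395 and 0.0411). Both had the FlncgKO libraries in the order of the summed platelet markers, which was also that of the summed cardiomyocyte markers. *Coro1a* was at 15.1, 12.5 and 5.79 CPM in FlncgKO libraries 1, 2 and 3, against 0.686, 0.483 and 1.30 CPM in control libraries. The other leukocyte genes tested, *Csf1r* and *Cd68*, were at 1.23 and -0.07 (edgeR adjusted p = 0.618 and 0.924), with *Csf1r* highest in library 3 of both groups, and *Ptprc*, *Cx3cr1*, *Itgam* and *Adgre1* were below the filter. Erythroid markers had positive log2 fold changes in 8 of 8 genes (median 0.87) and summed to 7286, 6463 and 10099 CPM in FlncgKO libraries, against 2662, 2615 and 7388 CPM in control libraries. Surface ectoderm and epithelial markers were positive in 4 of 4 genes tested (median 0.97), and liver bud and yolk sac endoderm markers in 0 of 6 (median -0.81). The latter summed to 13.2, 8.47 and 47.5 CPM in FlncgKO libraries, against 127.7, 10.7 and 28.0 CPM in control libraries. Control library 1 alone thus lay above all FlncgKO libraries. No gene of these 3 lists passed edgeR, DESeq2 or an unadjusted p under 0.05. Epicardial and cushion mesenchyme markers were each positive in 3 of 5 genes (medians 0.02 and 0.29), and none passed edgeR or DESeq2. The cardiomyocyte markers, 8 of 8 tested, summed to 30128, 29400 and 25680 CPM in FlncgKO libraries 1, 2 and 3, against 29372, 32104 and 27825 CPM in control libraries 1, 2 and 3. Their log2 fold changes were positive in 1 of 8 genes (median -0.10), and none passed edgeR. DESeq2 called *Myh6* lower (-0.43, adjusted p = 0.00242) and *Myh7* higher (0.35, adjusted p = 0.0154), each with no overlap of the groups. The part of these cells in the results for the 9 genes was not tested.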

How the data were processed

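RNA-seq of 3 FlncgKO and 3 control libraries was used, with groups and numbers from the sample labels. The authors made polyA libraries with a stranded kit, quantified reads with salmon against GENCODE M22 transcripts (GRCm38.p6) and tested genes with DESeq2 1.22.2 (the salmon version is not given in the sources used here). The deposited files hold estimated counts, TPM and effective length for 140658 transcripts per library. Transcripts were joined to genes by identifier through GENCODE M21, also on GRCm38, and 0.37% without a gene, with 0.108% to 0.131% of counts, were not used.

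Gene counts were the rounded sums of the estimated counts and were tested across all genes with edgeR 4.0.16 (robust quasi-likelihood test, TMM, filterByExpr with a minimum count of 10) under R 4.3.3. Adjusted p-values (Benjamini-Hochberg) were read at a threshold of 0.05. CPM were computed on TMM-scaled library sizes. The authors' TPM was summed per gene for levels between genes, and effective lengths entered 1 alternative. Exact permutation tests were two-sided. Promoter windows came from RefSeq tables on GRCm38.p6. Procedures were tested on simulated data. Alternatives were RLE or total-count scaling, other filters, length offsets, the replicate number, Y-linked level, DESeq2 1.42.0 and leaving out each library; DESeq2 leaving out each library, libraries 1 and 2 of each group, and the placental covariate were chosen after seeing the data.

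The genes named are the 9 members, *Flnc*, passing genes and up to 3 genes with the smallest p in the pathway, endothelial, platelet and leukocyte lists, and the 3 genes nearest to the member with the smallest p; placental genes and *Prl3d1* were chosen after their values were seen. Also named are *Vwf*, *F8*, *Fgb* and the endothelial markers with a negative log2 fold change. The smallest-p genes of the other marker lists are given by counts only, apart from *Myh6* and *Myh7*, which DESeq2 called. Of 4 ratios computed, 2 are not reported here, nor is 1 gene of the pathway lists. The members and lists were chosen with earlier results of these data known.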

Additional observations from a re-analysis of the deposited data

How the results depend on the processing

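No member was called lower by any alternative. Counts of genes called over the whole table varied widely, with 170 higher and 40 lower in the fit reported: 392 and 162 with no filter on low counts, 63 and 13 with transcript length offsets, 0 and 0 with the Y-linked level as a covariate, 987 and 360 with DESeq2, 990 and 251 without both libraries numbered 3, and 617 and 136 with the placental covariate. A filter of 10 counts in every library gave 215 higher and 62 lower. Leaving out 1 library at a time gave 1 to 989 higher and 0 to 283 lower with edgeR (the most without FlncgKO library 3, the fewest without control library 1 or 2), and 520 to 1293 higher and 115 to 512 lower with DESeq2. The cause was not tested.

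Members called higher numbered 0 in the fit reported, where 170 of 16048 genes were. There was 1 (*Pros1*) with 10 counts in every library (215 of 14590 genes), with DESeq2 (987 of 15953) and with the placental covariate (617 of 16048). Without both libraries numbered 3 there were 2 (*Pros1*, *Plau*), against 990 of 16135 genes. The number of members called thus rose in fits that called more of all genes. Leaving out 1 library gave 0 to 1 members with edgeR and 1 to 2 with DESeq2, where *Plau* passed without control library 3 (log2 fold change 1.78, DESeq2 adjusted p = 0.00785).

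With the Y-linked covariate, where the group difference rests largely on FlncgKO library 1, *F3* turned to -0.31, *Tfpi* to -0.16 and *Procr* to -1.18. *Pros1* was at 1.41 in that fit (edgeR adjusted p = 0.148). *Procr* turned to -0.24 with the placental covariate and, without FlncgKO library 3, to -1.57 with edgeR and -1.58 with DESeq2. *Thbd* turned to 0.10 without FlncgKO library 1 with both tools, and to 0.02 with edgeR and 0.015 with DESeq2 without control library 3. *Plat* turned to 0.00047 without control library 2, and the *F3* to *Tfpi* ratio to -0.027 without FlncgKO library 2 (log2 difference). Over all fits that left out 1 library, the lowest *Thbd* value was -0.49, the highest *Procr* value 3.00, the lowest *Plat* value -0.20 and the highest *F3* to *Tfpi* difference 0.23. *Pros1*, *Plaur*, *Plau* and *Serpine2* kept a positive log2 fold change under every alternative run.

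The samples share only a number: the series speaks of pairs without saying that a number marks one, and deviations from the group mean correlated at 0.094, 0.574 and 0.620 for libraries 1, 2 and 3, with FlncgKO library 1 correlating slightly more with control library 2 (0.097). With the replicate number as a block, 512 genes were called higher and 120 lower, and 2 members were called, *Tfpi* (log2 fold change 0.46, edgeR adjusted p = 0.0225) and *Plau* (1.20, edgeR adjusted p = 0.0387), while *Pros1* had an adjusted p of 0.0641. For the *F3* to *Tfpi* and *F3* to *Thbd* ratios the block leaves the difference between groups unchanged by construction. It therefore cannot show whether their direction holds.

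Depth limits *Plau* and *Plaur* most, with 21 counts of *Plau* in control library 2.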
